A study of Arabidopsis thaliana with 9 samples.

Results

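Leaf RNA of F1 plants from a cross of Col-0 with ddm1 was set against the mid-parent value, the mean of the wild-type and ddm1 group means after scaling to 1 nuclear library size. The wild-type group was WT Col-0, the F1 plants were DDM1/ddm1 and so carried 1 mutant allele, and the ddm1 group was ddm1(-/-) in its 2nd generation. All plants were Arabidopsis thaliana, leaves were taken at 4 to 5 weeks, and each of the 3 groups had 3 independent biological replicates. The ddm1 allele, the direction of the cross, and whether the measured ddm1 plants were of the generation crossed are stated by none of the sources. The loci described were the nuclear loci with a mean TPM (a read level corrected for transcript length and scaled to the same total in each library) of 1 or more in any group, which were 16623 of the 33602 loci in the tables. They comprised 979 transposable element genes (TE genes) and 15644 other genes. A filter on low counts left 16267 of them for testing, and 58 TE genes and 298 other genes among the 16623 were not tested. Just inside the threshold lay AT3G10820 at a mean TPM of 1.00015, and just outside it AT5G09790 at 0.999236.

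DDM1 is a chromatin remodelling ATPase that lets DNA and histone methyltransferases reach nucleosomal DNA, and in its absence transposons lose methylation and many are transcribed. An F1 of wild type and ddm1 has a working DDM1 copy but receives a set of hypomethylated chromosomes from the mutant parent. Where each parental set keeps its activity, the F1 level is expected at the mid-parent value, which is called additive expression. A level at that of 1 parent is called dominant, and a level outside both parents is called transgressive.

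The libraries held 15996773 to 22425675 estimated counts, of which 5209141 to 7570471 fell on nuclear loci. Organelle loci took 71.6% ± 1.13 (SD, n = 3) of all counts in F1, against a mid-parent value of 67.3%. Of the leaf markers, Rubisco activase had 14940 to 125862 counts and RBCS1A 4794 to 68113, while CA1 was at 156 to 378 counts in F1 against 1153 to 14314 in the parents. The root genes PLT1 and WOX5, the seed genes OLEO1, CRA1, SESA1 and LEC1 and the flower gene AP1 had 0 counts in all 9. Other markers of root, flower and pollen were present at low level: SCR at 109 to 286 counts, SHR at 44 to 139, AG at 0 to 26, AP3 at 0 to 2 and the pollen gene VGD1 at 0 to 164, the highest in wild-type replicate 2. The DDM1 transcript itself had 3, 12 and 5 counts in the wild-type libraries, 2, 0 and 8 in the F1 libraries and 1, 2 and 2 in the ddm1 libraries, too few to check the genotypes. Time of day at harvest and growth batch are not given, so a difference of F1 from both parents cannot be told apart from a difference in either. In bulk leaf RNA, fewer cells of a type and less RNA per cell cannot be told apart.

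Against the mid-parent value, 3871 of the 18060 tested nuclear loci (21.4%) were called, 9.7% above and 11.7% below (edgeR quasi-likelihood F test with the F1 mean held at the mid-parent value, Benjamini-Hochberg adjusted p under 0.05, as for every adjusted p here). Among the loci described, TE genes were called below the mid-parent value in 227 of 921 cases and above it in 12. Of the 979 TE genes described, 446 met the TPM threshold in ddm1 alone, a choice that itself favours a level below the mid-parent value in F1, so these counts and the positions given further on describe the loci chosen. The direction also depended on the arithmetic mid-parent value. With a geometric one, which is near 0 where wild type is silent, 524 TE genes were above and 6 below, and the log2 ratio of several loci named here turned positive, as for AT2G06740 (3.63). Other genes were called in both directions in similar number, 1714 above and 1776 below of 15346. The median log2 ratio of F1 to mid-parent was -0.70 over the TE genes, 0.05 over the other genes and 0.01 over all tested loci. The counts depended on which F1 library was left out. Without F1 replicate 1 they were 105 and 4 for TE genes and 643 and 473 for other genes, below and above in turn. Without F1 replicate 2 they were 143, 4, 759 and 504. Without F1 replicate 3 they rose to 272, 15, 1974 and 1877. On the log2 scale F1 replicates 1 and 2 correlated at r = 0.961, and replicate 3 with these at 0.936 and 0.920. For ddm1 the same values were 0.970, 0.879 and 0.888. The TE genes called below also fell to 145 without ddm1 replicate 1, where 7 were above, and to 139 without ddm1 replicate 2.

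**Figure D1:**
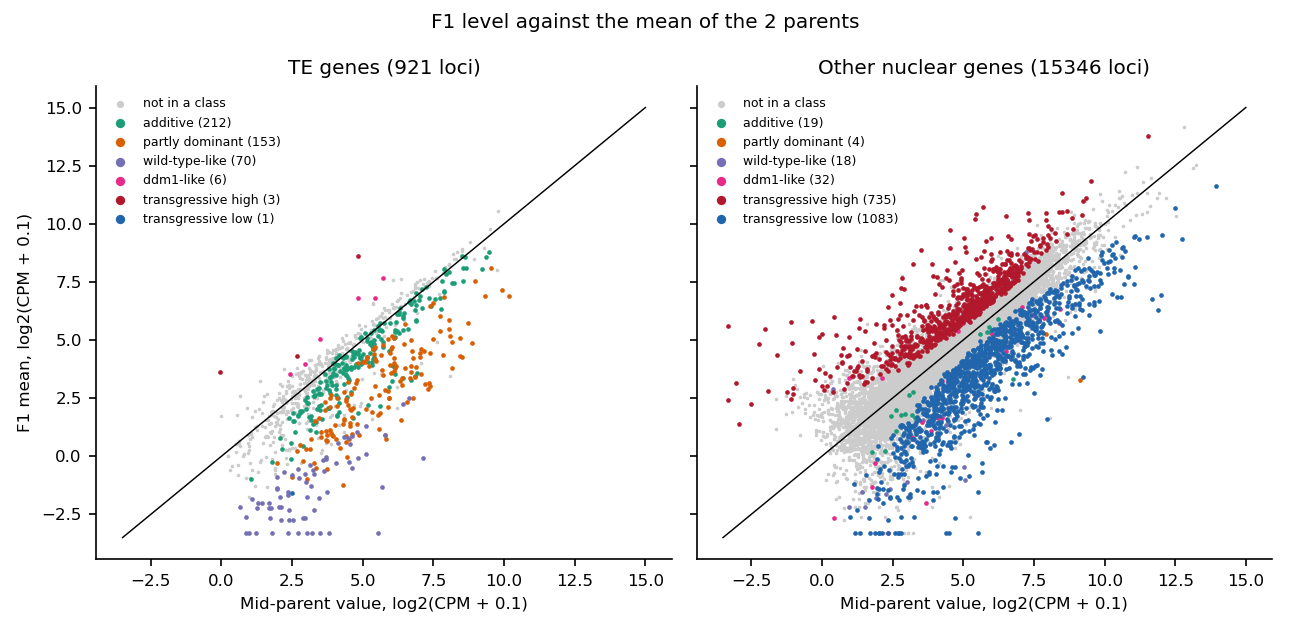
F1 mean against mid-parent value on a log2(CPM + 0.1) scale, 1 point per tested locus, TE genes on the left and other nuclear genes on the right, coloured by class; the line marks equality. Most TE genes lie below the line, with an upper quartile of 0.07 for the log2 ratio of F1 to mid-parent, and the other genes carry 735 points in the transgressive high class and 1083 in the transgressive low class.

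Each locus was classed from the mid-parent test and the 3 pairwise contrasts of the same fit. A locus was additive when the parents were called different and F1 was called different from both and lay between them, without a call against the mid-parent value. It was partly dominant when it met the same conditions with such a call. It was wild-type-like or ddm1-like when the parents were called different and F1 was not called against that parent. Such loci were also called against the other parent and against the mid-parent value. A transgressive locus had F1 called against both parents in the same direction, whether or not the parents were called different. Over all tested loci the pairwise contrasts called 7.38% between the parents, 23.3% between F1 and wild type and 16.6% between F1 and ddm1. Among the loci described the parents differed at 832 TE genes and 239 other genes. Of the TE genes, 212 were additive, 153 partly dominant and 70 wild-type-like, against 6 ddm1-like, 3 transgressive high and 1 transgressive low. Over all tested loci these 6 classes held 1.37%, 0.88%, 0.797%, 0.21%, 4.12% and 6.15% of loci. The largest group was outside these classes, 390 TE genes with different parents whose F1 level the contrasts could not place. Another 6 were called only against the mid-parent value, and 80 had no call. Because additive loci are those without a call, the class also gathers loci whose departure was too small to detect with 3 libraries. The wild-type-like and ddm1-like classes likewise rest on a missing call against 1 parent, and their F1 level may lie outside both parents.

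**Figure D2:**
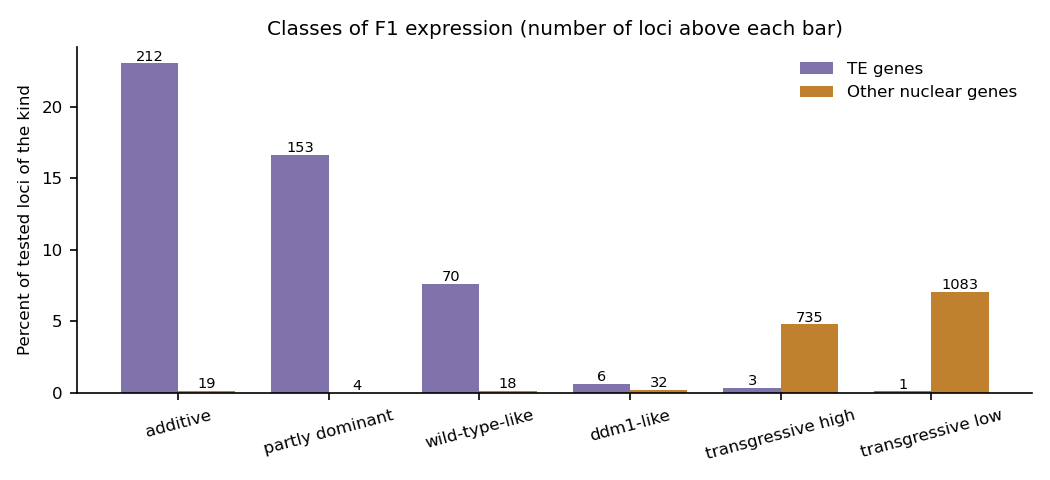
Percent of tested TE genes and of tested other nuclear genes in each class of F1 expression, with the number of loci above each bar. Of the 6 classes, TE genes are mostly in the additive, partly dominant and wild-type-like classes, and other genes in the transgressive classes.

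Of the 832 TE genes with different parents, 829 were higher and 3 lower in ddm1, against 6.89% and 0.493% of all tested loci. The F1 level of the TE genes higher in ddm1 lay below the mid-parent value at 72.9%, a description only, since a high ddm1 level chose these loci and also raises their mid-parent value. The F1 position, which is 0 at the wild-type level, 0.5 at the mid-parent value and 1 at the ddm1 level, had a median of 0.296 over these 829 TE genes, with quartiles of 0.0941 and 0.513. In the 3 F1 libraries taken alone the median was 0.261, 0.268 and 0.301. The position lay under 0.1 at 216 loci, from 0.1 to 0.4 at 308, from 0.4 to 0.6 at 170, from 0.6 to 1 at 116 and above 1 at 19. All 3 F1 libraries lay below the mid-parent value at 489 loci and none did at 108. The loci share libraries and scaling, so they are no replicates of each other.

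The F1 position varied little between chromosomes, with medians from 0.255 on chromosome 5 to 0.315 on chromosome 2, and little with the level in ddm1, with medians from 0.280 to 0.315 over 4 equal bins of that level. In the pericentromere, taken as 2.5 Mb on either side of the densest 1 Mb of TE genes, the median was 0.284 over 689 loci, and on the arms 0.379 over 140. F1 was called below the mid-parent value at 29.2% of the former and 15% of the latter. The difference between the locations was not tested.

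The additive TE genes with the highest mean CPM, which is not corrected for length, were AT2G06720, AT1G42050 and AT3G30765, all pericentromeric and all nearly silent in wild type. AT2G06720 (chromosome 2, 2678827 to 2681289) was measured in CPM, the count scaled to 1000000 nuclear counts per library, with library sizes adjusted by TMM scaling factors. Its wild-type libraries held 0, 0 and 0.135 CPM, its F1 libraries 407, 494 and 417 CPM and its ddm1 libraries 1474, 1462 and 1306 CPM. The F1 libraries were close to each other, and the groups did not overlap. Their mean fell short of the mid-parent value by 0.69 ± 0.29 (SE) on the log2 scale, without a call (adjusted p = 0.113). Where 3 means are given for a locus from here on, they stand in the order wild type, F1, ddm1. AT1G42050 had means of 0.143, 376 and 1306 CPM, and AT3G30765 of 0.205, 263 and 1204 CPM. Neither was called, with adjusted p of 0.142 and 0.113. Over the 212 additive TE genes the F1 mean lay below the mid-parent value at 193, with a median log2 ratio of -0.72 and a median SE of 0.36. The number of additive loci of both kinds, 231, was 118 without F1 replicate 1, 127 without F1 replicate 2, 121 without ddm1 replicate 1 and 109 without ddm1 replicate 2.

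The partly dominant TE genes lay nearer to wild type in 152 of 153 cases and had a median F1 position of 0.0792. AT2G06740 starts just beyond the additive AT2G06720 on the same strand of chromosome 2, at 2681659 to 2685131. Its wild-type libraries held 0, 0 and 0.135 CPM, its F1 libraries 105, 171 and 155 CPM and its ddm1 libraries 1988, 1865 and 2028 CPM. F1 was 6.82-fold below the mid-parent value (log2 ratio -2.77 ± 0.33 SE, adjusted p = 0.0015), and the call held whichever library was left out. AT1G38360 showed 257, 262 and 308 CPM in F1 against a mid-parent value of 735 CPM (log2 ratio -1.42 ± 0.31, adjusted p = 0.0136). That call was lost without F1 replicate 1 or 2, with adjusted p of up to 0.0708. AT3G45520 rested on a spread ddm1 group of 507, 642 and 5737 CPM, with F1 at 64.9, 117 and 178 CPM, and lost its call (adjusted p = 0.0353) without any of 6 libraries, with adjusted p of up to 0.132. These 6 were wild-type replicates 1 and 2, all 3 F1 replicates and ddm1 replicate 3. The partly dominant class of both kinds numbered 157, and 72 without F1 replicate 1, 95 without F1 replicate 2, 100 without ddm1 replicate 1 and 94 without ddm1 replicate 2.

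The 70 wild-type-like TE genes were near silence in F1, with a median of 0.246 CPM, against 15.4 CPM in ddm1. That ddm1 median lay under those of the additive and partly dominant TE genes, 53.6 and 93.0 CPM. Named here are the 3 with the highest mean CPM. AT1G35647 (chromosome 1, 13181478 to 13186236) had 0 CPM in all wild-type libraries, 0, 0 and 2.53 CPM in F1 and 364, 374 and 98.9 CPM in ddm1. F1 was 165-fold below the mid-parent value (log2 ratio -7.37 ± 1.18, adjusted p = 0.00736), and its counts came from F1 replicate 3 alone. At AT3G33067 and AT3G43862 the F1 level also came mostly from replicate 3, with 15.8 and 13.4 CPM there against at most 0.911 CPM in the other F1 libraries. Their adjusted p were 0.0296 and 0.0289. The call of AT3G33067 was lost without wild-type replicate 3, F1 replicate 1 or 2, or ddm1 replicate 1 or 2 (adjusted p up to 0.0992), and that of AT3G43862 without wild-type replicate 2, F1 replicate 1 or 2, or ddm1 replicate 1 (up to 0.0919). Both kinds together had 88 wild-type-like loci, and 48 without F1 replicate 1 and 56 without ddm1 replicate 1 or 2. Among the TE genes with different parents, 642 had 0 counts in wild type, and 9 of these had 0 in F1 also.

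A few TE genes reached or passed the ddm1 level in F1. The 6 ddm1-like TE genes all lay beyond it, at F1 positions from 1.31 to 1.99, without a call against ddm1. AT4G07850 (chromosome 4, 4671637 to 4675725) was at 1.28, 1.34 and 0.812 CPM in wild type, 146, 253 and 216 CPM in F1 and 89.6, 145 and 75.5 CPM in ddm1. Every F1 library was above every ddm1 library, by a narrow margin for F1 replicate 1. F1 was 3.92-fold above the mid-parent value (log2 ratio 1.97 ± 0.31, adjusted p = 0.00404). AT4G04170 (chromosome 4, 2013697 to 2018328) had 0 CPM in wild type, 205, 823 and 145 CPM in F1 and 40.4, 67.8 and 61.1 CPM in ddm1, the groups again not overlapping. It was transgressive high at 13.9-fold over the mid-parent value (log2 ratio 3.79 ± 0.70, adjusted p = 0.0118), and at a log2 ratio of 2.64 without its high F1 replicate 2, with the call kept whichever library was left out. The others in the transgressive high class, SADHU7-1 and SADHU6-1, belong to the Sadhu retroposons and were expressed in wild type. SADHU7-1 had 38, 51 and 28 counts in the wild-type libraries, 95, 128 and 124 in the F1 libraries and 58, 48 and 18 in the ddm1 libraries, with means of 5.82, 19.8 and 6.84 CPM. SADHU6-1 had means of 1.28, 12.3 and 0.451 CPM. Their adjusted p were 0.00766 and 0.00248. AT3G15310, the only transgressive low TE gene, had means of 2.74, 0.235 and 8.44 CPM and 4 counts in all over the F1 libraries (adjusted p = 0.00865). The ddm1-like AT2G13050 and AT2G06670 were at 112 and 111 CPM in F1 against 85.5 and 56.7 CPM in ddm1, and lost their calls (adjusted p = 0.0326 and 0.0403) without F1 replicate 1 or 2 or some ddm1 libraries, with adjusted p of up to 0.0952 and 0.129. For AT2G13050 these were all 3 ddm1 replicates and for AT2G06670 replicates 2 and 3.

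**Figure D3:**
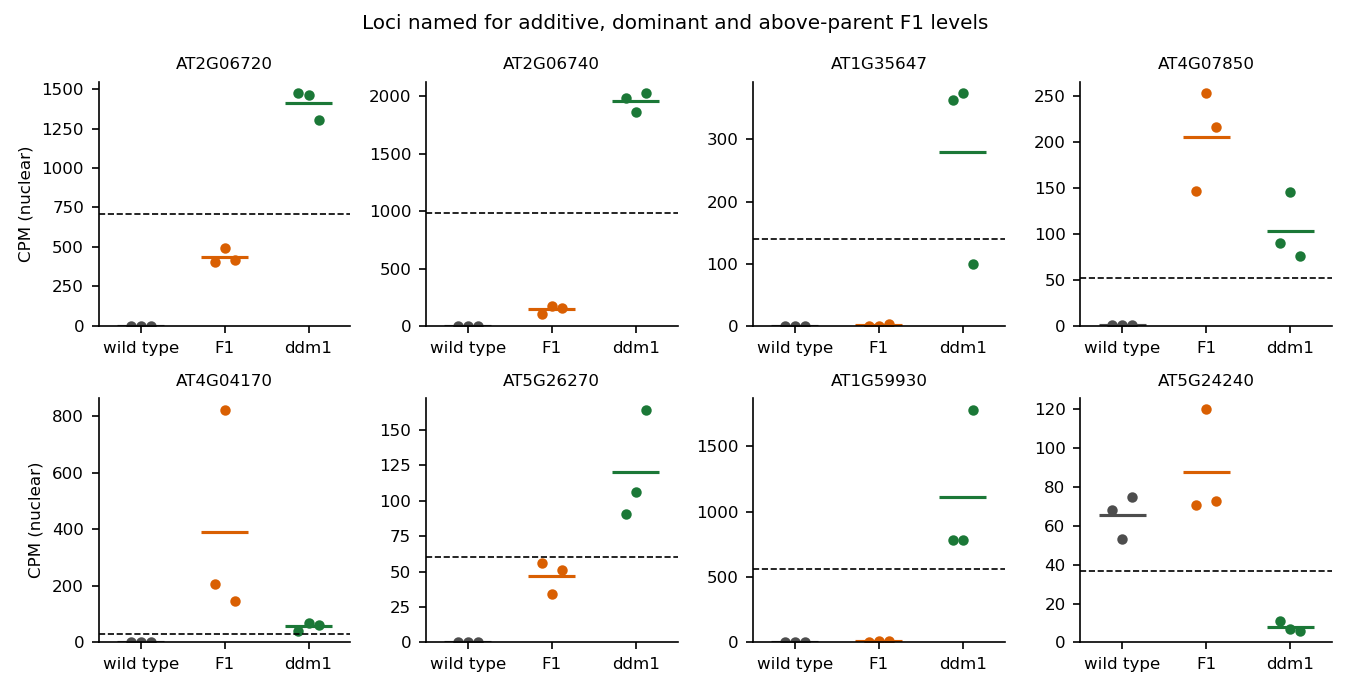
CPM by library (points) and group mean (bars) for 8 loci named by class, with the mid-parent value as a dashed line. AT2G06720 and AT5G26270 are additive, AT2G06740 and AT1G59930 partly dominant, AT1G35647 and AT5G24240 wild-type-like, AT4G07850 ddm1-like and AT4G04170 transgressive high; F1 points of AT2G06740 lie between 105 and 171 CPM under a mid-parent value of 980.1 CPM.

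Summed over all TE genes, F1 also stayed below the mid-parent value. TE genes took 3.36%, 3.15% and 3.62% of nuclear counts in the F1 libraries, against 0.256% ± 0.00681 (SD, n = 3) in wild type, 9.22% ± 0.262 in ddm1 and a mid-parent value of 4.74%. The F1 share was 0.713 of the mid-parent value, and every F1 library lay below the 3 computed mixes, each made of 1 library of either parent, which gave 4.58%, 4.80% and 4.83%. The two-sided exact permutation p was 0.1, the smallest that 3 against 3 can give. In the F1 libraries 471, 477 and 594 TE genes reached a TPM of 1, around a mid-parent value of 508.

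Among the other genes, 239 had different parents, 158 higher and 81 lower in ddm1. The 158 had a median F1 position of 0.375, and the 81 of 0.915. The position was above 1 at 25 of the 158 and 35 of the 81, and under 0.1 at 26 and 14. These values are a description only, since the parent libraries that chose the genes also set the scale of the position. AT5G26270, an additive gene of unknown function on chromosome 5, was at 0, 0.149 and 0.135 CPM in wild type, 55.8, 34.5 and 51.0 CPM in F1 and 90.8, 106 and 164 CPM in ddm1. Its F1 mean of 47.1 CPM stood beside a mid-parent value of 60.3 CPM (log2 ratio -0.36 ± 0.30, adjusted p = 0.429). AT4G10060, a gene for a GBA2-type beta-glucosidase, ran the other way with 127, 60.0 and 22.3 CPM (adjusted p = 0.431). AT3G45525, a RING/U-box gene directly beside the TE gene AT3G45520, shared that gene's high ddm1 replicate 3, with 39.0, 59.9 and 550.1 CPM in ddm1 and 4.44, 16.4 and 8.94 CPM in F1 (adjusted p = 0.0608).

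AT1G59930, partly dominant and close to the wild-type level, encodes a MADS-box family protein. It measured 1.44, 0.894 and 1.89 CPM in wild type, 6.65, 10.8 and 11.6 CPM in F1 and 785, 781 and 1780 CPM in ddm1. F1 was 57.7-fold below the mid-parent value (log2 ratio -5.85 ± 0.48, adjusted p = 0.000435). AT4G06718 was partly dominant in the same direction with means of 0.143, 38.2 and 484 CPM (adjusted p = 0.00388). AMP1, a peptidase gene that limits cytokinin and meristem size, was wild-type-like at 42.4, 24.7 and 96.6 CPM (adjusted p = 0.0082). AT5G24240, for a phosphatidylinositol 4-kinase gamma-like protein, was lower in ddm1 and wild-type-like in F1, at 65.4, 88.0 and 7.88 CPM. Its call (adjusted p = 0.0154) was lost without F1 replicate 2 (0.0679).

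The 32 other genes of the ddm1-like class lay below the mid-parent value in 25 cases. Their F1 position ran from 0.976 to 3.16 with a median of 1.13, so many lay beyond the ddm1 level without a call against it. FLC, the MADS-box repressor of flowering, was at 9.26, 12.5 and 8.26 CPM in wild type and had 0 counts in all 3 F1 and all 3 ddm1 libraries. Its F1 level was at least 29.4-fold below the mid-parent value, taking 3 counts over the F1 libraries as the floor (adjusted p = 0.00585), and the call held whichever library was left out. SBP2, for a selenium-binding protein, was at 502, 80.9 and 179 CPM and AT1G73600, for a methyltransferase, at 539.6, 52.4 and 126 CPM, with adjusted p of 0.00573 and 0.00402. The ddm1-like class of both kinds numbered 38, and was among the counts most moved by single libraries. It numbered 22 and 25 without wild-type replicates 1 and 2, 18 without F1 replicate 1, and 16, 13 and 97 without ddm1 replicates 1, 2 and 3.

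Genes of sulfur deficiency were the listed group with the most differences between the parents, 6 of 11. F1 was called below the mid-parent value at 8 of the 11, and at 5 without F1 replicate 1 or 2. Over all tested loci 7.38% differed between the parents and 11.7% were called below the mid-parent value. APR1, a reductase of sulfate assimilation, was at 424, 409 and 322 CPM in wild type, 18.3, 31.0 and 20.4 CPM in F1 and 41.2, 51.6 and 116 CPM in ddm1. F1 was lowest, 9.79-fold below the mid-parent value (log2 ratio -3.29 ± 0.41, adjusted p = 0.00177). SHM7, a serine hydroxymethyltransferase, was ddm1-like with means of 396, 60.7 and 70.6 CPM (adjusted p = 0.003). SDI1, a marker of sulfur starvation, was ddm1-like with 497, 3 and 12 counts per group, in the order of the means (adjusted p = 0.00279). The median log2 ratio over the 11 was -2.00.

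Transgressive expression belonged almost wholly to the other genes, with 735 high and 1083 low of 15346. At 1801 of these 1818 the parents were not called different. The median log2 ratio to the mid-parent value was 1.36 in the high class and -1.94 in the low class, while the median absolute log2 difference between the parents was 0.22. All F1 libraries lay above all 6 parent libraries at 2229 other genes and below them at 1926, against 12.7% and 11.1% of all tested loci. The 1822 transgressive loci of both kinds, a class holding 10.3% of all tested loci, numbered 575 without F1 replicate 1, 668 without F1 replicate 2, 1149 without wild-type replicate 2, 975 without ddm1 replicate 1 and 1089 without ddm1 replicate 2.

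The circadian clock was opposite in its morning and evening genes. Of 14 evening genes tested, 12 were called above the mid-parent value and none below, and of 12 morning genes 8 were called below and none above. Over all tested loci 9.7% were called above and 11.7% below. The parents were called different at none of the evening and 1 of the morning genes. LHY, a MYB factor that peaks at dawn and represses evening genes, was at 282, 284 and 318 CPM in wild type, 2.03, 4.19 and 2.53 CPM in F1 and 231, 170.5 and 211 CPM in ddm1. F1 was 85.4-fold below the mid-parent value (log2 ratio -6.42 ± 0.32, adjusted p = 2.66e-05). Its partner CCA1 was at 176, 11.7 and 99.0 CPM and the coactivator gene LNK2 at 384, 36.1 and 294 CPM, with adjusted p of 3.97e-05 and 0.000103. PRR7 was at 121, 126 and 117 CPM and PRR9 at 23.0, 21.1 and 30.6 CPM, without a call.

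TOC1, an evening repressor of the dawn genes, was at 16.8, 12.8 and 18.0 CPM in wild type, 327, 343 and 264 CPM in F1 and 11.0, 14.8 and 14.6 CPM in ddm1. The F1 libraries stood far above all others, 21.2-fold over the mid-parent value (log2 ratio 4.41 ± 0.22, adjusted p = 2.66e-05). FKF1, a blue-light receptor F-box gene, had 0 counts in all 6 parent libraries and 39.0, 61.1 and 44.3 CPM in F1, at least 607-fold over the floor of 3 counts over the parent libraries (adjusted p = 0.000699). COR27, a cold-regulated gene that represses other clock genes, was at 0.686, 56.5 and 0.669 CPM, and LUX (PCL1), the MYB-like member of the evening complex, at 0.982, 63.9 and 1.48 CPM. GI, ELF3, PRR5, PRR3 and BOA were also above the mid-parent value, 4.91-fold for GI and at log2 ratios from 2.66 for ELF3 to 4.72 for BOA. ELF4 was above it at 11.7 CPM in F1 against 1.26 and 0.696 CPM (adjusted p = 0.0147), a call lost without F1 replicate 2 (0.0587). LKP2 was called at a log2 ratio of 0.57 and lost its call without any of 7 libraries, with adjusted p of up to 0.171, and also under RLE scaling. ZTL was at 90.2, 92.9 and 87.8 CPM. The median log2 ratio was 3.92 over the evening and -1.43 over the morning genes. With each library left out in turn, 10 to 12 evening genes were called above and 7 or 8 morning genes below, and CHE (AT5G08330), at a log2 ratio of -1.60 without a call (adjusted p = 0.0559), was called below without wild-type replicate 3 or F1 replicate 3.

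The evening element, AAAATATCT or its complement AGATATTTT, is a promoter motif known to be bound by LHY, CCA1 and related MYB factors. The 250 bases before the gene start are shown for 3 of the 4 evening genes with the largest ratio to the mid-parent value, from the RefSeq annotation of TAIR10.1, 5′ to 3′ on the strand of the gene, with the element in capitals. The windows are chr1:25508389-25508638 for FKF1 (+ strand), chr4:16285230-16285479 for COR28 (- strand) and chr3:17182792-17183041 for LUX (+ strand). None overlaps an annotated exon.
FKF1: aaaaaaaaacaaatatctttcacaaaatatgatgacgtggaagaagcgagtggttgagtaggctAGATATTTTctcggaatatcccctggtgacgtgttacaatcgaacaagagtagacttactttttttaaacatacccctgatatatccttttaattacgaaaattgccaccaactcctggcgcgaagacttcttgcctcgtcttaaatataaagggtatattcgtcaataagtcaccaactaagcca
COR28: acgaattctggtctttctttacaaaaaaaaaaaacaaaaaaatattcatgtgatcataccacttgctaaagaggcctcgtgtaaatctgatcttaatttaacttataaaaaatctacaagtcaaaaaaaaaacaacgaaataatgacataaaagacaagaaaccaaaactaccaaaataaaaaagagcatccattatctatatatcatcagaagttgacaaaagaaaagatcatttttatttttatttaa
LUX: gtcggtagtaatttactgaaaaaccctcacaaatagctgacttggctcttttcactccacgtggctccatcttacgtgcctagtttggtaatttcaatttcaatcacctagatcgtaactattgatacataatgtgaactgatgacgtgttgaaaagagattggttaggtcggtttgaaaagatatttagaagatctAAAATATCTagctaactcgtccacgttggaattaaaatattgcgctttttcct
FKF1 and LUX held 1 element each. COR28 held none, and had instead the related CCA1 binding site AAAAATCT, which does not occur within the evening element. On both strands, the evening element was in the windows of 6 of 14 evening genes and of none of 12 morning genes, against 728 of 32830 nuclear loci (2.22%). It was in 46 of 734 windows of transgressive high genes (6.27%) and in 30 of 1083 of transgressive low genes (2.77%). The G-box CACGTG was in 6 of 12 morning windows and in 5.83% of all. It was in 52 of 734 windows of transgressive high genes (7.08%) and in 132 of 1083 of transgressive low genes (12.2%). Of the windows of all tested loci described, 2.41% held the evening element and 7.20% the G-box. A match is a description of these letters and not of binding.

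**Figure D4:**
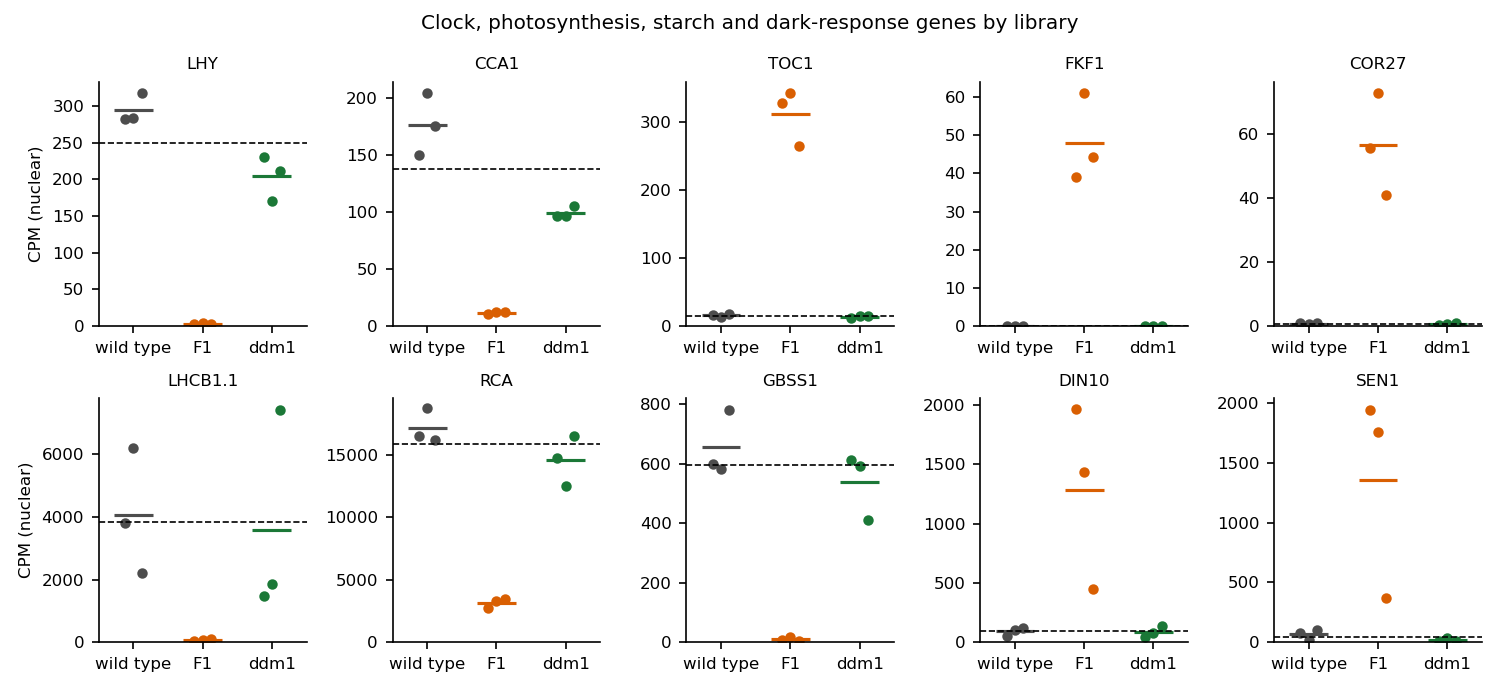
CPM by library (points) and group mean (bars) for 10 genes, with the mid-parent value as a dashed line. F1 lies below both parents for LHY, CCA1, LHCB1.1, RCA and GBSS1 and above both for TOC1, FKF1, COR27, DIN10 and SEN1, where F1 replicate 3 is the lowest of its group for DIN10 at 450 CPM and SEN1 at 372 CPM.

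Nuclear genes of photosynthesis were low in F1. Of the light-harvesting antenna 13 of 18 were called below the mid-parent value, beside 11.7% of all tested loci. Of nuclear photosystem subunits 21 of 23 were called below, and of Rubisco and Calvin cycle genes 13 of 15. Their median log2 ratios were -2.02, -1.78 and -2.57. The 1 called above was CP12-1, a Calvin cycle regulator, at 269, 460.5 and 303 CPM (adjusted p = 0.0421), whose call was lost without wild-type replicate 1 or 3, F1 replicate 1 or 2, or ddm1 replicate 1 or 2 (up to 0.170), and under RLE scaling. RCA, the activase that keeps Rubisco working, was at 16538, 18763 and 16218 CPM in wild type, 2762, 3314 and 3435 CPM in F1 and 14752, 12546 and 16542 CPM in ddm1. F1 was 5.01-fold below the mid-parent value (log2 ratio -2.33 ± 0.28, adjusted p = 0.00148). LHCB1.1 (CAB2), a chlorophyll-binding antenna protein, was at 3798, 6189 and 2201 CPM in wild type, 59.0, 76.6 and 97.0 CPM in F1 and 1482, 1874 and 7419 CPM in ddm1. The parents varied several-fold among their own libraries, yet F1 lay far below all of them (log2 ratio -5.63 ± 0.74, adjusted p = 0.00207). Antenna and Rubisco small-subunit genes have near-identical copies whose reads the counting could have split between them.

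The photosystem I genes PSAD-2 and PSAH2, the photosystem II gene PSBX and the Calvin cycle genes FBA1, GAPB and SBPASE were transgressive low, with log2 ratios from -1.84 for PSAD-2 to -3.38 for SBPASE. GLDP1, the P-protein of the photorespiratory glycine decarboxylase, was at 7263, 656 and 6445 CPM (adjusted p = 0.00085). Leaf markers as a list were called below the mid-parent value at 5 of 7, beside 11.7% of all tested loci. Their summed level ran from 32609 to 52856 CPM in wild type, 7678 to 14881 CPM in F1 and 28746 to 52279 CPM in ddm1. The part of cell composition in this was not tested. Of the leaf markers, RBCS1A, RCA and SBPASE also belonged to the Rubisco and Calvin cycle list and LHCB1.3 to the antenna list. Without F1 replicate 1 the antenna count was 6, the photosystem count 6, the Rubisco and Calvin cycle count 5 and the leaf marker count 3, and without F1 replicate 2 these were 8, 8, 5 and 3.

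Starch genes were below the mid-parent value at 11 of 22 and above it at 1, SEX1, with a median log2 ratio of -1.24. Over all tested loci 11.7% were called below and 9.7% above. GBSS1, which makes amylose, was at 601, 583 and 782 CPM in wild type, 7.76, 17.3 and 6.26 CPM in F1 and 613, 593 and 411 CPM in ddm1. All F1 libraries were far below all parents, 57.2-fold under the mid-parent value (log2 ratio -5.84 ± 0.45, adjusted p = 0.000309). The starch synthase gene SS3 was at 83.8, 19.5 and 106 CPM, and DPE2, which metabolises maltose at night, at 249, 98.9 and 365 CPM, with adjusted p of 0.0022 and 0.00276. SEX1, a glucan kinase that opens starch granules for breakdown, was at a log2 ratio of 0.66 (adjusted p = 0.023), lost without wild-type replicate 1, F1 replicate 1 or 2, or ddm1 replicate 1 (up to 0.101).

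Genes of senescence and dark response were above the mid-parent value at 8 of 13 and below at none, with a median log2 ratio of 1.35. Over all tested loci 9.7% were called above and 11.7% below. SEN1, induced in the dark and in old leaves, was at 82.3, 18.9 and 104 CPM in wild type, 1943, 1758 and 372 CPM in F1 and 13.1, 34.1 and 9.35 CPM in ddm1. F1 replicate 3 was several-fold lower than its partners and still above every parent library. The ratio to the mid-parent value was 31.1 (log2 4.96 ± 0.85, adjusted p = 0.00567). DIN10, of raffinose metabolism, had the same order of F1 libraries with 1960, 1431 and 450 CPM, against parental means of 94.2 and 90.2 CPM (adjusted p = 0.00264). DIN4, of branched-chain amino acid breakdown, was at 31.7, 177 and 28.2 CPM (adjusted p = 0.00358). The list counted 4 without F1 replicate 1 and 5 without F1 replicate 2, wild-type replicate 2 or ddm1 replicate 2.

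CAT3, a catalase whose transcript peaks in the evening, had the highest mean CPM of the transgressive high genes, at 2560, 1613 and 3235 CPM in wild type, 13706, 18247 and 9685 CPM in F1 and 2952, 3940 and 3319 CPM in ddm1 (log2 ratio 2.24 ± 0.32, adjusted p = 0.00261). BGAL1, a beta-galactosidase, was at 999, 3702 and 468 CPM (adjusted p = 0.00696). Histone variant genes were above the mid-parent value at 7 of 11 and below at none, at 3 and 2 without F1 replicates 1 and 2 and at 4 without wild-type replicate 1. Their median log2 ratio was 0.85, and 9.7% of all tested loci were called above the mid-parent value. The linker histone genes AT1G06760 and AT2G30620 were at 30.4, 116 and 29.5 CPM and at 43.4, 156 and 39.6 CPM, with adjusted p of 0.000481 and 0.00169, and held in every leave-one-out fit.

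Salicylic acid and defence genes were above the mid-parent value at 4 of 19 and below at none, with 1 without F1 replicate 1 and 2 without F1 replicate 2 or wild-type replicate 2. The 4 were 21.1% of the list, beside 9.7% of all tested loci. The median log2 ratio of the list was 0.96. PR1, a secreted defence marker, was at 0.479, 0.149 and 0 CPM in wild type, 42.1, 10.9 and 34.0 CPM in F1 and 0.541 CPM on average in ddm1, where its counts were 1, 1 and 6 (log2 ratio 6.27 ± 0.77, adjusted p = 0.00177). The others were ICS1 and EDS5, both of salicylic acid synthesis, and the defensin gene PDF1.4, with log2 ratios of 1.31, 1.16 and 4.29. All 3 lost their calls (adjusted p = 0.0163, 0.0483 and 0.04) without F1 replicate 1, the latter pair also without F1 replicate 2 and some other libraries, with adjusted p of up to 0.0869, 0.161 and 0.166. Jasmonate genes were below at 6 of 21 (28.6%, beside 11.7% of all tested loci) and above at none, with a median log2 ratio of -0.89. Without F1 replicate 1 or 2 they were called below at 1. Called or not, the F1 mean lay below the mid-parent value at 20 and above it at 1. Without wild-type replicate 1 it lay below at 14 and above at 7, and 4 were called below. JAZ3, a repressor of jasmonate signalling, was at 52.6, 15.4 and 34.7 CPM (adjusted p = 0.00242).

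Aliphatic glucosinolate genes were below the mid-parent value at 13 of 17 and above at none (median log2 ratio -2.33), with 2 without F1 replicate 1 and 9 and 8 without F1 replicates 2 and 3. Over all tested loci 11.7% were called below and 9.7% above. MYB29, an activator of the pathway, was at 23.1, 20.7 and 19.6 CPM in wild type, 0, 0 and 0.745 CPM in F1 and 10.5, 5.68 and 20.9 CPM in ddm1, 67.4-fold below the mid-parent value in F1 (adjusted p = 0.00274). The glucosyltransferase gene AT2G31790 was at 71.1, 6.30 and 29.6 CPM (adjusted p = 0.00248). In this list no parent difference was called, though ddm1 was lower than wild type by a median of 1.24 on the log2 scale. Indole glucosinolate and camalexin genes were below at 3 of 16 (18.75%) and above at 1 (6.25%), beside 11.7% and 9.7% of all tested loci. The 1 above was ASA1, the anthranilate synthase of tryptophan synthesis, at 42.9, 98.1 and 48.1 CPM (adjusted p = 0.0031). The 3 below were SUR1, UGT74B1 and MYB34, and the count was 0 without F1 replicate 1 and 1 without F1 replicate 2, wild-type replicate 1 or ddm1 replicate 2. Single libraries ended the call of SUR1 in 1 case, of UGT74B1 in 5 and of MYB34 in 8 of 9, with adjusted p of up to 0.0988, 0.146 and 0.159 (all 9 libraries 0.0191, 0.0341 and 0.0483). Flavonoid and anthocyanin genes were below at 3 of 9 (33.3%, beside 11.7% of all tested loci). TT4, the chalcone synthase, was at 56.5, 86.6 and 47.2 CPM in wild type, 1.11, 0.729 and 2.09 CPM in F1 and 123, 35.7 and 55.4 CPM in ddm1 (log2 ratio -5.69 ± 0.58, adjusted p = 0.00085). F3H and the MYB activator PAP1 were the others, and PAP1 had 249, 1 and 129 counts per group.

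Of the silencing machinery, 11.1% of maintenance, 7.69% of RNA-directed and 7.14% of post-transcriptional genes were called below the mid-parent value and none above. Over all tested loci these shares were 11.7% below and 9.7% above. Of maintenance methylation and H3K9 methylation genes 1 of 9 was below, CMT3, the chromomethylase, at 9.73, 1.59 and 9.17 CPM (adjusted p = 0.023). Of RNA-directed DNA methylation genes 1 of 13 was below, AGO4 at 21.6, 9.69 and 30.0 CPM (adjusted p = 0.0217). Of post-transcriptional silencing genes 1 of 14 was below, AGO10 at 53.0, 28.1 and 39.6 CPM (adjusted p = 0.012). All 3 calls were lost without F1 replicate 1 or 2, and that of CMT3 also without F1 replicate 3, with adjusted p of up to 0.0991 for CMT3, 0.1 for AGO4 and 0.0729 for AGO10. The median log2 ratios of these 3 lists were -0.36, -0.16 and -0.04. None of 5 demethylation genes was called, and ROS1 was at 133, 88.0 and 102 CPM. None of 7 tested loci known to be silenced by methylation was called with all 9 libraries. Without F1 replicate 3, 2 of them were called below, and without ddm1 replicate 1 or 3, 1 was. Among the 7, SDC was at 0.248, 1.35 and 21.4 CPM, near wild type in F1 but with an adjusted p of 0.0674.

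Flowering genes were above the mid-parent value at 1 of 15 and below at 3, light signalling genes at 1 and 4 of 16, with median log2 ratios of -0.13 and -0.55. In percent these were 6.67 above and 20 below for flowering and 6.25 above and 25 below for light signalling, beside 9.7% and 11.7% of all tested loci. Beside FLC, the flowering genes called were the CDF factors, which repress CO: CDF1 at 15.7, 4.75 and 26.5 CPM, CDF3 at 50.3, 24.9 and 64.7 CPM and, in the other direction, CDF5 at 14.5, 44.7 and 11.2 CPM. Their adjusted p were 0.013, 0.0106 and 0.0142, and the calls of CDF3 and CDF5 were lost without F1 replicate 1 (0.0594 and 0.0771), that of CDF5 also without F1 replicate 2. Of the light signalling genes, PHYA, the far-red light receptor, was at 165, 359 and 170 CPM (adjusted p = 0.0188). SPA1, a partner of the COP1 ubiquitin ligase, was at 272, 129 and 256 CPM and the phytochrome-interacting factor PIF1 (PIL5) at a log2 ratio of -1.12, with adjusted p of 0.00682 and 0.00842, and both held without any 1 library. PIF7 and ELIP1 were also below, with adjusted p of 0.0121 and 0.0242. The calls of PHYA, PIF7 and ELIP1 were lost without F1 replicate 1 or 2, with adjusted p of up to 0.0954, 0.0529 and 0.102, and that of ELIP1 without F1 replicate 3 also.

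Nitrate uptake and assimilation genes were below at 2 of 14 and above at none. These were the plastid enzymes of ammonium assimilation, GLU1 at 2452, 641 and 2367 CPM and GLN2 (GS2) at 894, 219 and 739 CPM, with adjusted p of 0.00254 and 0.0142. The latter call was lost without F1 replicate 1 or 2 (up to 0.07). Cold and drought genes were below at 1 of 12, RD20 at 346, 64.5 and 230 CPM (adjusted p = 0.0204), a call lost without F1 replicate 1 or 3 (up to 0.0922). Heat shock genes were above at 1 of 9, HSFA7A, and DNA damage response genes at 1 of 8, SOG1, the activator of that response. Their adjusted p were 0.0401 and 0.0442, and leaving out single libraries ended the first call in 6 of 9 cases and the second in 8 of 9, with adjusted p of up to 0.186 and 0.194. The SOG1 call was also lost under plain totals and RLE scaling. The shares called were 14.3% below for nitrate, 8.33% below for cold and drought, 11.1% above for heat shock and 12.5% above for DNA damage. These were near the 11.7% below and 9.7% above of all tested loci, and no member was called in the other direction. The median log2 ratios of the 4 lists were 0.25, 0.24, -0.02 and -0.19.

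The root markers SCR and SHR and the flower and pollen markers SEP1 and VGD1, the only ones tested of their lists, were not called, and no seed marker passed the filter. Summed levels of the tested markers ran from 39.4 to 63.4 CPM in wild type, 28.7 to 44.3 CPM in F1 and 47.2 to 51.1 CPM in ddm1 for root, and from 0.812 to 30.3, 1.28 to 9.09 and 6.74 to 17.1 CPM for flower and pollen.

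Outside the lists, the genes with the largest ratios above the mid-parent value were AT1G17665, GLYI4 and AT1G30720. AT1G17665 was at 0, 0.745 and 0.135 CPM in wild type, 57.1, 35.0 and 39.9 CPM in F1 and 0 CPM in ddm1, 299.9-fold above it (adjusted p = 0.00122). GLYI4, of the glyoxalase I family, was at 101, 48.7 and 13.9 CPM in F1 against 0.426 and 0.305 CPM (adjusted p = 0.00454), and AT1G30720, of the berberine bridge enzyme family, at 31.8, 23.9 and 6.11 CPM against 0.266 and 0.206 CPM (adjusted p = 0.00419). F1 replicate 3 was the lowest for the latter pair. On the other side, scpl10, a serine carboxypeptidase-like gene, held 19.5, 32.9 and 39.5 CPM in the wild-type libraries, 10.5, 2.56 and 21.5 CPM in the ddm1 libraries and 0 counts in F1, at least 124-fold below (adjusted p = 0.00411). PPT2, a plastid phosphoenolpyruvate translocator, had 1228, 5 and 484 counts in wild type, F1 and ddm1 (adjusted p = 0.00458), and LpxC1 had 662, 1 and 360 (adjusted p = 0.00696). AT5G15948 was at 0 counts in F1 and at 15.8 and 28.9 CPM in the parents (adjusted p = 0.00944). AT1G13650 had 1357, 1 and 109 counts, CSLA01, of the cellulose synthase-like family, 1309, 0 and 442, and the pectate lyase gene AT1G67750 172, 1 and 81. The calls of these last 3 (adjusted p = 0.0149, 0.0204 and 0.0222) were lost without F1 replicate 1 or 2, and that of AT1G67750 without F1 replicate 3 also, with adjusted p of up to 0.0785, 0.0661 and 0.0916.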

How the data were processed

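Estimated counts and TPM per locus were deposited for 9 leaf libraries, read as 50 bp single-end reads from rRNA-depleted directional libraries, per the labels' protocols. The estimated counts are in the deposited tables as kallisto gives them, per the file headers, and kallisto 0.46.0 and TAIR10 are named in the submitters' processing notes. The TPM values, scaled by length within a library, were also made by the authors, per the file headers. No source used here gives the index or strand setting, so overlapping genes and near-identical copies, common among transposons, may share reads.

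The 3881 TE genes were the loci that RefSeq (TAIR10.1) types as pseudogene, gives an mRNA and calls an uncharacterized protein. Counts were rounded, and 279 organelle and 4 rRNA loci were left out. edgeR 4.0.16 in R 4.3.3 was fitted to all 9 libraries with TMM scaling, filterByExpr and robust quasi-likelihood dispersions. The mid-parent F test took the deviance lost when the F1 mean was held at the arithmetic mean of the parent means, and p-values were adjusted over 18060 loci. SEs were derived from F. Dispersions came from 3 libraries a group, and floors cover counting error only. The steps were also run on counts simulated from the fitted means and dispersions. Such counts follow the model, so they cannot show how the test fares with the real spread of libraries.

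Genes named are the 3 highest by mean CPM in each class, the 8 most above and below among other genes with a mean of 3 CPM or more, and called members of 29 gene lists (453 of 456 symbols matched). The members and lists were chosen with earlier results of these data known. Same-numbered replicates did not deviate together (r -0.49 to 0.24), so numbers were not used as pairs. Alternatives were other scalings, filters, tools and mid-parent definitions and each library left out. Some list counts by left-out library were added after seeing the data. The promoter window of 1 evening gene is not reported here.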

Additional observations from a re-analysis of the deposited data

Results flagged for a closer look

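Organelle loci, which the main comparisons left out, took 71.6% of all counts in F1, above every wild-type library. The wild-type libraries averaged 67.3% ± 2.33 (SD, n = 3) and the ddm1 libraries 67.2% ± 0.854 (SD, n = 3), and the exact permutation p against either was 0.1, the smallest possible. Its part in the nuclear results was not tested. Groups of 3 libraries were too small to look for single outlying libraries.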

How the results depend on the processing

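The counts called against the mid-parent value stayed within 1.5 times under plain totals, RLE size factors, no low-count filter and kept organelle loci, and these scalings moved the median log2 ratio of all loci by at most 0.0589. Leaving out libraries moved TE genes above between 4 and 15, TE genes below between 105 and 272, other genes above between 473 and 1877 and below between 643 and 1974, additive loci between 109 and 229, wild-type-like between 48 and 128, ddm1-like between 13 and 97, partly dominant between 72 and 171, transgressive between 575 and 2377, and the ratio of TE shares between 0.687 and 0.736. That ratio was 0.618 with organelle and rRNA counts in the total. With the number as a replicate block, 7 TE genes and 910 other genes were above, and 117 loci were additive, 22 ddm1-like and 868 transgressive. At a mean TPM of 5 or more, 138 TE genes were below, 139 loci additive and 31 wild-type-like. Against computed mixes, edgeR called 19 TE genes above and DESeq2 31, and DESeq2 called 2725 other genes below. With a geometric mid-parent value, 524 TE genes were above and 6 below, and log2 ratios became positive for AT2G06720 (5.47), AT1G42050 (4.67), AT3G30765 (4.02), AT5G26270 (3.64), AT3G43862 (0.0741), AT3G45520 (2.61), AT2G06740 (3.63), AT1G38360 (3.26), AT4G06718 (2.09) and AT5G33251 (3.83). The cause of the other moves was not tested. Of 186 called named genes, 90 kept the call whichever library was left out.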
